A study of Mus musculus with 17 samples.

Results

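The genes described here are those that present antigen and those that respond to interferon, measured in the liver and the hippocampus of mice fed different dietary oils. They were chosen by name: array probe sets annotated to a single gene whose symbol starts with H2- (the mouse major histocompatibility complex, MHC), Ifi or Ifit, Irf, Irgm, Gbp or Stat with a digit, or is B2m, Cd74, Isg15, Mx1, Igtp, Iigp1, Tap1 or Tap2. The rule found 58 genes, of 6137 genes on the arrays, measured by 74 probe sets, of 7542 with a single gene name. A probe set is a group of short oligonucleotides that together give 1 intensity for a transcript. The rule itself uses names and no measured value, but it was set with earlier results of these data known.

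The mice were male Rj:NMRI animals, an outbred stock, fed powdered purified diets that differed in their oils. The control diet held neither test oil, the fungal oil diet held 1.1% of an oil rich in arachidonate, the fish oil diet held 1.9% fish oil, and the combined diet held both. Food was given from the first day until the mice were killed in the morning of day 57 or 58, without a complete fast. Each diet was fed to 10 mice, housed 10 per cage, of which 5 were selected. The liver gave 2 RNAs of the control diet and 1 RNA for each of the other 3 diets, and the hippocampus gave 1 RNA for each of the 4 diets. A pair of array types was used, called chip A and chip B here. All 5 liver RNAs were measured on both, while the hippocampus RNA of the combined diet was analysed here on chip B only, so that chip A has 3 hippocampus RNAs. The labels do not say whether an RNA came from 1 mouse or from a pool, and the p-values below measure only the spread between these RNAs. As a cage held as many mice as a diet, diet and cage cannot be told apart.

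MHC class I molecules are made of a heavy chain and B2m and show peptides from inside the cell to cytotoxic T cells, after Tap1 and Tap2 have carried those peptides into the endoplasmic reticulum. MHC class II molecules, with their chaperone Cd74, show peptides from outside the cell to helper T cells and are made mainly by macrophages, dendritic cells and B cells, which in liver include the resident Kupffer cells. Interferons act through Stat and Irf transcription factors, which raise class I genes, antiviral genes such as Isg15, Mx1 and the Ifit family, and families of GTPases (Gbp, Irgm1, Igtp, Iigp1, Ifi47) that act against intracellular pathogens. In the healthy brain, neurons hold little class I, and class II is largely limited to a few cells at its borders.

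By role, the rule gave 12 class I heavy chain genes with 18 probe sets, B2m, both peptide transporter genes, 9 class II genes (Cd74 counted here) with 16 probe sets, 10 other interferon-induced genes, 9 interferon-induced GTPases, 9 Irf genes and 5 Stat genes. The remaining member, H2-Ke6, is a metabolic enzyme gene that shares the H2- prefix by its position in the MHC, and it lay at or below the floor in all RNAs. The floor is an intensity of 15, to which lower and negative values were set before logarithms were taken. Many members were dim. Of the 74 probe sets, 20 lay at or below the floor in all liver RNAs, 30 in all hippocampus RNAs and 16 in all RNAs of both tissues. Among the members at the floor on every array were Mx1, Irf4, Stat4, Ifi202b, H2-T24 and H2-Q8. Tests were run on probe sets whose mean level reached the median of their chip, which kept 41 member probe sets of 32 genes in liver, 26 of 21 genes in hippocampus, and 32 of 23 genes where the tissues were compared. All counts below cover those that passed, not all members.

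Short stretches of promoter are printed first for members whose levels the results turn on, because the shared sequences show both which genes carry a typical interferon-response element and how alike the class I genes are. RefSeq promoter windows, from 250 bases before to 50 bases after the gene's start in build GRCm38.p6, were available for 45 of the 58 genes. The reference sequence is that of an inbred strain, and the mice were outbred. Capitals mark the motif. B2m (chr2:122147530-122147575, plus strand), Isg15 (chr4:156200857-156200914, minus strand) and Irgm1 (chr11:48871421-48871468, minus strand) hold GAAANNGAAA, the core of the interferon-stimulated response element.
B2m: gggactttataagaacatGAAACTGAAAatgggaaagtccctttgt
Isg15: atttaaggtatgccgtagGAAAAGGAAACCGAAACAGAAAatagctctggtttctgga
Irgm1: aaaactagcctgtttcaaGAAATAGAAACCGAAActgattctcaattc
The class I genes H2-D1 (chr17:35262926-35262970, plus strand), H2-K1 (chr17:34000411-34000455, minus strand) and H2-Q10 (chr17:35469916-35469960, plus strand) hold the shorter form GAANNGAAA, which appears below on the opposite strand.
H2-D1: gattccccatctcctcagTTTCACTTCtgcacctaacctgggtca
H2-K1: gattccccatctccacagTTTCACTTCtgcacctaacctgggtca
H2-Q10: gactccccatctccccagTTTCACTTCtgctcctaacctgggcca
The class II genes H2-Aa (chr17:34287849-34287892, minus strand) and H2-Eb1 (chr17:34305787-34305830, plus strand) hold CTGATTGG, the Y box of class II promoters.
H2-Aa: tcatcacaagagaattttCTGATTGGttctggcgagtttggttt
H2-Eb1: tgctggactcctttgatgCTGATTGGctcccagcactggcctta
In these 45-base windows H2-D1 and H2-K1 were identical at 44 bases, and each was identical to H2-Q10 at 41. Searching both strands, GAAANNGAAA was found in 13 of 57 windows of the members and in 3.44% of 32851 RefSeq windows of the same length. The 13 genes were B2m, Gbp2, Gbp2b, Gbp3, Gbp7, Ifih1, Ifit1, Ifit3, Igtp, Irf2, Irgm1, Isg15 and Stat4. The gamma-activated site TTCNNNGAA was found in 9 member windows and in 8.3% of all windows. GAANNGAAA, which can overlap GAAANNGAAA, was found in 13 member windows and 7.52% of all, and CTGATTGG in 9 and 4.1%; these last motifs were chosen after the windows had been read. The 8 genes with CTGATTGG were H2-Aa, H2-Eb1 and H2-Oa of class II, and H2-D1, H2-K1, H2-M1, Irf8 and Tap1, so the motif was not limited to class II here. A match describes letters and is not evidence of binding.

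The liver and the hippocampus were then compared, to ask where these genes are expressed. B2m, the heavy chains H2-D1, H2-K1 and H2-Q10 and the GTPase Iigp1 were each higher in liver than in hippocampus. Cd74 and Isg15 were measured in liver and lay below the floor in every hippocampus RNA. Intensities of different probe sets do not rank transcripts, so each is compared only with itself. Ifitm10 and Irf2bp1 were higher in hippocampus, and the class II probe sets other than Cd74 did not go one way. With limma and Benjamini-Hochberg adjustment over all kept probe sets of both chips, and at least a 2-fold difference, 17 of 32 member probe sets of 12 genes were called. Of these, 14 were higher in liver and 3 were higher in hippocampus. Over all 6535 probe sets tested, 18.7% were higher in liver and 30.7% higher in hippocampus, and the members' split is not read as a difference from it. Of the 14 calls higher in liver, 7 would not have passed the filter on the hippocampus arrays alone (a probe set each of Cd74, Isg15, Iigp1, H2-D1, H2-K1, H2-Aa and Stat3), and of the 3 higher in hippocampus, Ifitm10 would not have passed on the liver arrays. These passed through the tissue where they are high, so the counts and medians describe only what passed. The median log2 difference, liver minus hippocampus, was 0.27 over the 23 member genes and -0.26 over all 3552 genes tested.

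The arrays of the tissues differed in more than diet and tissue. The ratio of the 3-prime to the 5-prime control probe sets, which rises when RNA is degraded or incompletely copied, was 1.89 to 3.26 for Gapdh and 3.32 to 4.17 for actin on the liver arrays, and 0.84 to 0.947 and 1.33 to 1.55 on the 6 hippocampus arrays that carry these probe sets. The highest Gapdh ratio was that of the fish oil liver on chip B. The part of these ratios in the tissue difference was not tested. Trimmed means lay between 146 and 149 on all 17 arrays, and 15.2% to 34.5% of probe sets were negative. The labelled tissues matched their defining markers. All 6 hepatocyte markers tested were called higher in liver, and all 5 neuron markers tested were called higher in hippocampus. When the arrays were quantile normalized together, the median difference of all probe sets moved from -0.30 to -0.06, and the split of the called members became 15 higher in liver and 1 higher in hippocampus.

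**Figure D1:**
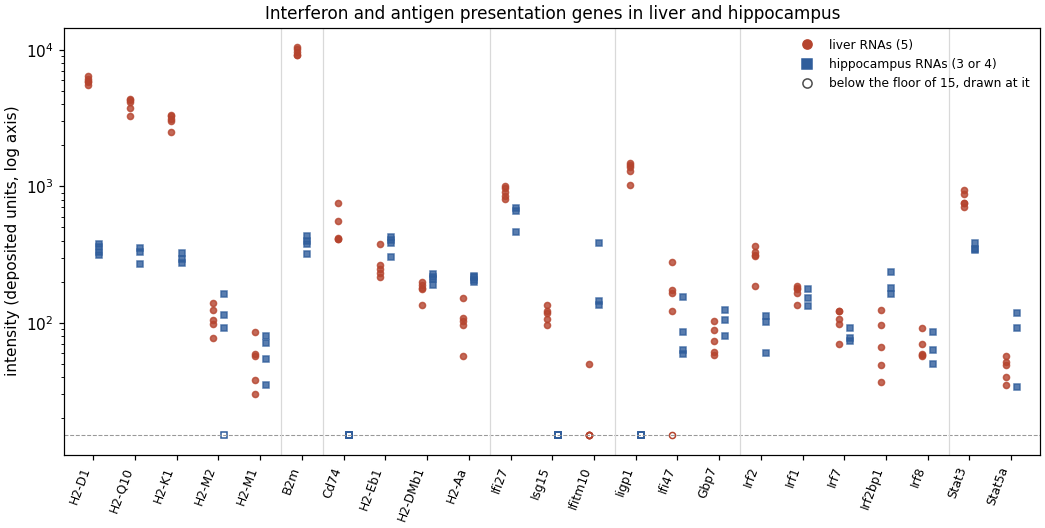
Intensity (log axis, deposited units) of the 23 member genes tested between tissues, each by its brightest probe set, with a point per RNA for 5 liver RNAs (circles) and 3 or 4 hippocampus RNAs (squares); open symbols lie below the floor of 15 and are drawn at it. Liver and hippocampus are far apart for B2m, H2-D1, H2-Q10, H2-K1, Cd74, Isg15 and Iigp1, and overlap for Irf1, Irf7, Irf8, H2-Eb1 and H2-DMb1.

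B2m is the light chain shared by all class I molecules. Its intensities were 9706 and 9120 in the control livers, 9149 with fungal oil, 10481 with fish oil and 10204 with both, against 430, 379, 320 and 398 in the hippocampus of control, fungal, fish and combined diets. The groups lay far apart, and the range over diets was small beside the gap between tissues. The log2 difference was 4.67 with a standard error of 0.10 (limma adjusted p = 6.63e-08, 5 liver and 4 hippocampus RNAs).

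H2-D1 is a classical class I heavy chain. Its chip B probe set read 6396 and 5798 in the control livers and 5870, 6148 and 5558 with fungal, fish and both oils. The same probe set read 375, 360, 329 and 313 in hippocampus. The difference was 4.10 log2 units, standard error 0.07 (limma adjusted p = 3.14e-08). Another of its probe sets, on chip A, ran from 1968 to 2505 in liver and from -105 to -26 in hippocampus, which is at least 151-fold against the floor. The remaining bright probe set read 3167 to 4076 against 372 to 378 and differed by 3.33 (limma adjusted p = 2.02e-07). All 3 gave the same direction and different sizes. A further H2-D1 probe set lay at or below the floor in every RNA.

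H2-K1, the other classical heavy chain measured, read 3023 and 3294 in the control livers and 3331, 2521 and 3105 with fungal, fish and both oils, against 325, 274 and 295 in hippocampus. Every liver exceeded every hippocampus, by 3.32 log2 units with a standard error of 0.11 (limma adjusted p = 1.14e-06). Its dimmer probe set read 762 to 1062 in liver and -48, 26 and 9 in hippocampus; with 2 of those 3 below the floor, liver was at least 49.3-fold higher. H2-Q10 encodes a class I protein that hepatocytes secrete. It read 3261 to 4340 in liver, with a median of 4141, against 272 to 354 in hippocampus, and differed by 3.71 (standard error 0.11; limma adjusted p = 6.96e-07). H2-M1 and H2-M2, nonclassical heavy chains, overlapped between the tissues and were not called, at -0.20 and 0.52. Because class I genes are near copies of each other and most of these probe sets carry the manufacturer's suffix for sequences shared within a family, how much of a signal belongs to H2-D1, H2-K1, H2-Q10 or an unlisted relative is uncertain. H2-T3, H2-T24, H2-Q8, H2-D4 and H2-Bl were at or below the floor in all RNAs, and H2-Q1 did not pass the filter in either tissue.

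The peptide transporters were dim. Tap1 read 52 to 73 in liver and -12 to -5 in hippocampus, and Tap2 read 23 to 91 in liver and -129 to -66 in hippocampus. No hippocampus RNA reached the floor for either gene. Neither passed the filter for the tissue test, so these values are given without one.

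Among class II genes, Cd74, the invariant chain that escorts class II molecules, differed most between tissues. It read 555 and 753 in the control livers and 417, 414 and 410 with fungal, fish and both oils, and it was below 0 in all 4 hippocampus RNAs. Against the floor, liver was at least 33.0-fold higher, and the limma adjusted p was 1.59e-06. H2-Aa, the class II alpha chain, was measured by 5 probe sets that passed and did not agree. One chip A probe set was higher in liver, at 91 to 193 against 24 to 35 (log2 difference 2.21, standard error 0.30, limma adjusted p = 8.72e-04). A chip B probe set went the other way, at 57 to 152 in liver against 199 to 219 in hippocampus (-1.10, standard error 0.23, limma adjusted p = 0.00413). That last call was lost under quantile normalization, where the difference was -0.71, and without the combined diet. The other 3 H2-Aa probe sets were not called, at -0.23, 0.24 and 0.92. H2-Eb1, the class II beta chain, was measured at 218 to 378 in liver and 305 to 422 in hippocampus by its brighter probe set, and H2-DMb1, part of the peptide exchanger H2-M, at 136 to 198 and 190 to 226. Neither was called: the differences were -0.53 and -0.24. H2-Ab1 read 44 to 125 in liver and was below 0 in all hippocampus RNAs, but it did not pass the filter for this test.

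Of the interferon-induced genes, Isg15, a ubiquitin-like protein attached to other proteins after interferon, read 135 and 106 in the control livers and 97, 118 and 123 with fungal, fish and both oils. All 4 hippocampus RNAs were below 0. Liver was at least 7.67-fold higher against the floor (limma adjusted p = 1.89e-05). Ifi27 read 464, 656 and 693 in hippocampus and 809 to 1011 in liver. The groups did not overlap, but the difference of 0.66 was under 2-fold (limma adjusted p = 0.0108) and is not counted as called. Ifitm10, a little studied member of the interferon-induced transmembrane family, was higher in hippocampus. It read 387, 145 and 134 there, against -258, -21, -183, 50 and -177 in liver. Only the fish oil liver lay above the floor, so that hippocampus was at least 10.3-fold higher against it (limma adjusted p = 0.00269).

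Iigp1 is a GTPase that attacks the vacuoles of intracellular parasites. It read 1486 and 1294 in the control livers, 1383 with fungal oil, 1025 with fish oil and 1426 with both, and it was below 0 in all 3 hippocampus RNAs. Liver was at least 87.5-fold higher against the floor (limma adjusted p = 2.14e-07). Igtp, at 75 to 107, and Irgm1, at 118 to 155, passed the liver filter and not that for the tissue test; in hippocampus they read -11 to 27 and 16 to 28. Gbp7 and Ifi47 overlapped between tissues and were not called, at -0.62 and 0.25. Gbp2, Gbp2b, Gbp3 and Mx1 passed no filter.

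Irf2, a transcription factor that competes with Irf1, was higher in liver, at 185 to 366 against 60 to 112, by 1.59 log2 units (standard error 0.12, limma adjusted p = 5.51e-05). Irf1 itself read 135 to 187 in liver and 132 to 176 in hippocampus and was not called, at 0.09. Irf2bp1, which binds Irf2 as a corepressor, was higher in hippocampus, at 162 to 237 against 37 to 125 (-1.15, standard error 0.25, limma adjusted p = 0.00675). That call was lost under quantile normalization, where the difference was -0.82, and without the control diet. Irf7 and Irf8 overlapped, at 0.27 and 0.05. Stat3, which carries interleukin 6 signals as well as interferon signals, read 708 to 941 in liver and 339 to 384 in hippocampus. It differed by 1.14 with a standard error of 0.11 (limma adjusted p = 1.44e-04), and its dimmer probe set was called in the same direction, at 2.26. Stat5a overlapped, and Stat4, Stat5b and Stat6 passed no filter. Apart from the H2-Aa and Irf2bp1 calls named above, the 15 other called probe sets were called under all of the settings in which they were tested.

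The diets were compared within the liver, where the control has 2 RNAs. No member was called for any oil. Limma, with all 4 diets sharing the spread of the 2 controls, called 0 of 41 member probe sets for fungal oil, fish oil, both oils or fungal against fish oil, and 0% of all 6535 probe sets in each of these comparisons. At an unadjusted p under 0.05 there were 5 of 41 member probe sets for fungal oil (12.2%, against 8.84% of all), 8 for fish oil (19.5%, against 11%), 4 for both (9.76%, against 9.82%) and 3 for fungal against fish oil (7.32%, against 9.1%). The lowest limma adjusted p of a member was 0.505, 0.382, 0.385 and 0.520 in that order. When the 3 oil RNAs were set together against the 2 controls, limma called 0 of 41 members, and 0.0612% of all probe sets; 5 members (12.2%) had an unadjusted p under 0.05, against 8.25% of all. The oil diets share their control RNAs, so their values below are not independent of each other.

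Counts of distance from the controls, without a test, put the members near the whole table for each diet. With fungal oil, 5 member probe sets (of H2-Aa, Ifi209 and Irf7) lay at least 1.5-fold below each control, which is 12.2% of 41, against 7.74% of all probe sets, and 0 lay as far above, against 4.41%. With fish oil, 5 (of H2-Aa, H2-M1, H2-M3 and Irf2) lay below, against 9.07%, and 1 (Irf2bp1) above, against 4.96%. With both oils, 4 (of H2-Aa, H2-Oa, Ifi47 and Tap2) lay below, against 7.36%, and 0 above, against 6.34%. The share of members for which all 3 oil RNAs lay below both controls was 26.8%, or 11 of 41, against 11.9% of all probe sets. These 11 probe sets belong to Cd74, H2-Aa, H2-Ab1, H2-D1, H2-Eb1, H2-K1, H2-M3, Ifi209 and Irf7. All 3 oil RNAs lay above both controls for 3, or 7.32%, of H2-DMb1, Ifih1 and Stat5a, against 12.5% of all.

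The median log2 difference over the 32 member genes kept in liver was -0.14 with fungal oil, -0.09 with fish oil and -0.14 with both oils, against -0.02, 0.00 and 0.03 over all 3513 genes. Between the 2 controls it was 0.01 for the members and -0.03 for all genes. Without the first control the medians were -0.06, -0.08 and -0.06 in that order, and without the second -0.13, -0.19 and -0.20. The number of the 32 genes below the control mean was 20, 22 and 18, or 62.5%, 68.75% and 56.25%. Of all genes, 52.09%, 49.67% and 45.97% lay below it in that order.

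**Figure D2:**
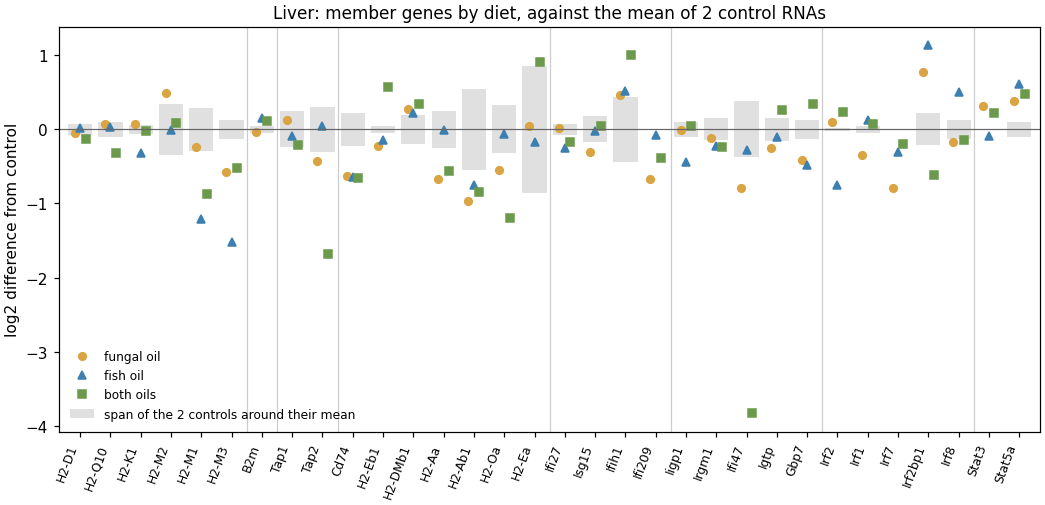
Log2 difference of the 32 member genes kept in liver from the mean of the 2 control RNAs, a point per oil diet, ordered by role from class I to Stat; the grey bars span the 2 controls around their mean. B2m, H2-D1 and H2-Q10 points lie close to 0, Cd74 and H2-Ab1 lie below 0 with all 3 oils, and Ifi47 with both oils is the farthest point, at -3.83, which the floor sets.

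The class I genes with high intensities were close to the controls, and the dim H2-M1 and H2-M3 were not. B2m differed by -0.04, 0.16 and 0.12 with fungal, fish and both oils, and H2-D1 and H2-Q10 by no more than 0.33 on any of their probe sets. The summed intensity of the 9 class I heavy chain probe sets was 20629 and 21282 in the controls and 20393, 19869 and 18058 with fungal, fish and both oils. The dimmer H2-K1 probe set, at 969 and 1062 in the controls, read 875, 762 and 810, below both controls with every oil (any oil against control -0.32, standard error 0.10, limma adjusted p = 0.487). An H2-D1 probe set on chip A read 3911 and 4076 in the controls and 3518, 3786 and 3167 in that order, also below both. The brighter probe sets of H2-K1 and H2-D1 overlapped the controls, so the heavy chains' own probe sets differ on this point. H2-M3, which presents bacterial peptides, was dim, at 60 and 72 in the controls and 44, 23 and 46 with the oils, below both controls each time (-1.52 with fish oil). H2-M1 read 85 and 57 in the controls and 59, 30 and 38 (-1.21 with fish oil). Neither was called by limma.

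Tap1 stayed within 52 to 73 in all livers. Tap2 read 60 and 91 in the controls, 55 with fungal oil, 76 with fish oil and 23 with both. The last value stands apart from the other 4 livers and lies near the floor.

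Class II gave 6 of the 11 probe sets that lay below both controls with every oil, and 4 of their 9 genes. These were 6 of its 12 probe sets kept in liver, of which 3 are of H2-Aa, against 11.9% of all probe sets; with only the brightest probe set of each gene, 2 of 7 class II genes lay so. Cd74 read 555 and 753 in the controls and 417, 414 and 410 with fungal, fish and both oils. The 3 oil values are nearly equal, while the controls are far from each other. The difference of any oil from control was -0.64 with a standard error of 0.18 (limma adjusted p = 0.336), and it was -0.86 without the first control and -0.42 without the second. Among the H2-Aa probe sets, the chip A set that is liver enriched read 193 and 181 in the controls and 118, 91 and 127 with the oils (-0.75, standard error 0.21, limma adjusted p = 0.365). The other H2-Aa sets of chip A read 148 and 134 against 63, 98 and 95, and 92 and 96 against 41, 46 and 69. All 3 lay below both controls with every oil. The H2-Aa sets of chip B did not: one read 96 and 108 in the controls and 152, 103 and 57 with the oils, and the other 232 and 164 against 123, 194 and 132.

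H2-Ab1, the class II beta chain partner of H2-Aa, read 125 and 59 in the controls and 44, 51 and 48 with the oils; the first control stands apart from the other 4 livers, and the any oil difference went from -0.31 without the first control to -1.39 without the second. H2-Eb1 read 240 and 167 against 163, 156 and 118 by a probe set, and 264 and 246 against 218, 230 and 378 by another. The combined diet thus lay lowest by the former and highest by the latter. H2-Oa, a chain of the inhibitor of peptide exchange, read 86 and 55 against 47, 66 and 30. H2-DMb1 went the other way, at 136 and 178 against 189, 181 and 198. The sum over the 12 class II probe sets was 2171 and 2190 in the controls and 1603, 1654 and 1713 with fungal, fish and both oils. Without the 5 H2-Aa probe sets it was 1410 and 1507 against 1106, 1122 and 1233, and without Cd74 1616 and 1437 against 1186, 1240 and 1303. In each version all 3 oil RNAs were below both controls, but no version left out H2-Aa and Cd74 together.

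Markers of cells that make class II were read beside it. Of 17 listed macrophage and Kupffer cell genes, 14 were on the chips and 11 passed the liver filter. The summed intensity of the 14 was 3248 and 3229 in the controls and 2387, 2222 and 2513 with fungal, fish and both oils. Fungal oil and both oils put all 11 that passed under the mean of the controls, and fish oil put 8 there. Of all genes, 52.09% lay there with fungal oil, 45.97% with both oils and 49.67% with fish oil. In every oil RNA 5 markers were below both controls, against 11.9% of all probe sets, and none was above, against 12.5%. Limma called none for any diet. Clec4f, a Kupffer cell lectin, read 180 and 254 in the controls and 132, 90 and 93 with the oils. Marco and Fcgr3 were at or below the floor in all livers. The part of these cells in the class II values was not tested, and in whole tissue fewer cells of a type and less RNA per cell cannot be told apart. Lymphocyte markers summed to 3042 and 2529 in the controls and 2884, 2706 and 2614 with the oils over the 13 genes on the chips. Most of that sum was a single probe set of Ms4a1, at 1432 to 1743. The other Ms4a1 probe set lay below the floor in every RNA. Of the 6 genes kept in liver, the T cell gene Cd4, at 135 and 139 against 47, 83 and 18, was below both controls with every oil. So was the T cell gene Cd3g, at 60 and 47 against 5, 28 and 32. A further T cell gene, Cd3e, read 138 and 133 against 200, 143 and 106. It was above both controls with fungal and fish oil and below both with the combined diet. Cd2, Cd3d, Cd79a and Cd8a were at or below the floor in every liver. Of 4 endothelial markers kept, Cdh5 and Tek were below both controls with every oil. Kdr, at 404 and 326 against 166, 314 and 414, and Tie1, at 90 and 40 against 137, 82 and 76, were not. The only dendritic cell marker kept, of 3 on the chips, lay below the control mean with fungal and fish oil and at it with both.

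**Figure D3:**
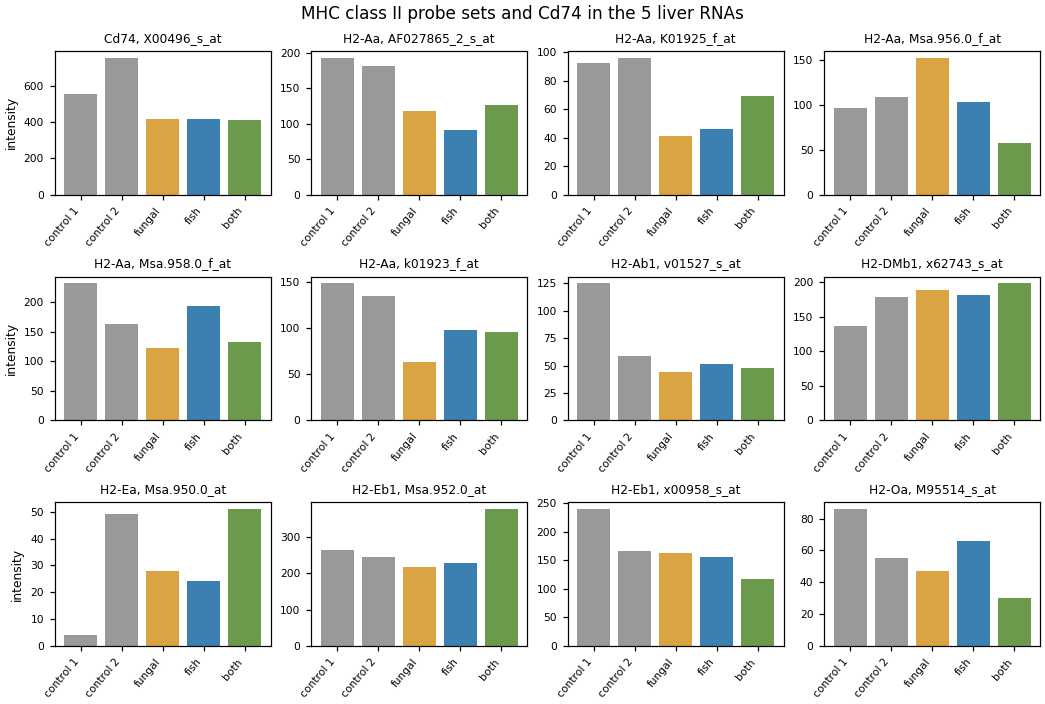
Intensity of each of the 12 class II probe sets kept in liver (Cd74 included) in the 5 liver RNAs, grey for the 2 controls and coloured for fungal oil, fish oil and both; a bar is 1 RNA and each panel has its own axis from 0. Cd74 and the H2-Aa sets of chip A are lower in every oil RNA than in either control, while H2-DMb1 is higher and the H2-Aa sets of chip B overlap.

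No other interferon-induced gene stood out in liver. Ifi27 read 915 and 1011 in the controls and 971, 809 and 856 with fungal, fish and both oils, and Isg15 stayed between 97 and 135. Ifi209, of the family of DNA-binding proteins that includes Ifi204, read 59 in both controls and 37, 56 and 45 with the oils. Ifih1, a sensor of viral RNA, read 35 and 64 in the controls and 65, 68 and 95 with the oils, so that the second control and the fungal oil RNA were nearly equal.

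All 5 GTPases kept in liver lay below the control mean with fungal and with fish oil, and 2 of 5 with both. Of all genes, 52.09%, 49.67% and 45.97% lay below it in that order. With fungal oil the difference of Iigp1 was only -0.004. Iigp1 was lowest with fish oil, at 1025 against 1486 and 1294 (-0.44, standard error 0.13, limma adjusted p = 0.441). Ifi47 read 164 and 277 in the controls, 123 with fungal oil, 175 with fish oil and -20 with both. A value below the floor in a single RNA gives the difference of -3.83 with both oils (limma adjusted p = 0.385), which rests on the floor and on 1 array. Igtp, Irgm1 and Gbp7 stayed within 75 to 107, 118 to 155 and 58 to 103.

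Irf2 read 307 and 314 in the controls, 332 with fungal oil, 185 with fish oil and 366 with both. The fish oil RNA stands alone below the rest, at -0.75 from control (standard error 0.13, limma adjusted p = 0.382) and 0.84 below fungal oil (limma adjusted p = 0.520). Irf7, the main factor behind large-scale type I interferon production, read 121 in both controls and 70, 98 and 106 with fungal, fish and both oils. Irf2bp1 read 49 and 66 in the controls, 97 with fungal oil, 125 with fish oil and 37 with both. Irf1 and Irf8 had oil RNAs on both sides of the controls. Stat3 read 750 and 760 in the controls, 941 with fungal oil, 708 with fish oil and 883 with both (0.32 with fungal oil, limma adjusted p = 0.546). Its dimmer probe set differed from the control mean in the opposite direction with each oil diet, at 260 and 232 against 227, 270 and 158. Stat5a was dim and higher with each oil, at 35 and 40 against 49, 57 and 52.

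In the hippocampus each diet has 1 RNA, so no difference has a replicate check and none was tested. B2m and H2-D1 were close to the control: B2m read 430 in the control and 379, 320 and 398 with fungal, fish and both oils, and H2-D1 read 375 against 360, 329 and 313. Ifi27 read 464 in the control, 656 with fungal oil and 693 with fish oil. At least a 2-fold distance from the control was reached by 3 of 26 member probe sets with fungal oil (H2-M1, Ifitm10 and Stat5a), against 4.88% of all kept probe sets. It was reached by 3 of 26 with fish oil (H2-M2, Ifit3 and Ifitm10), against 5.55%. With both oils, on chip B alone, it was reached by 3 of 10 (H2-Aa, H2-M1 and Ifi47), against 5.93%. All but Ifitm10 were dim. Ifitm10, the only one of these at or above the 75th percentile of its chip, read 387 in the control and 145 and 134 with fungal and fish oil. The control stands apart and the oil RNAs are close to each other.

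**Figure D4:**
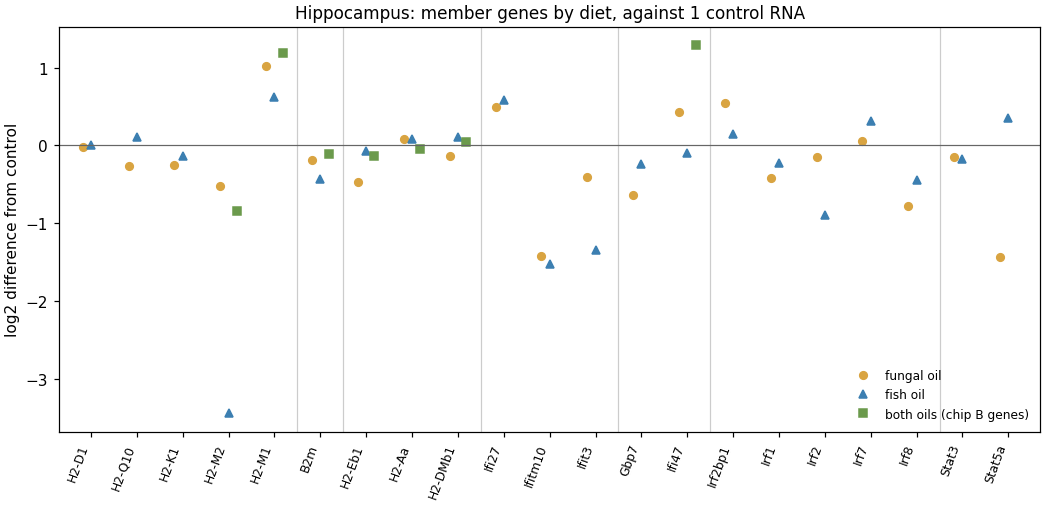
Log2 difference of the 21 member genes kept in hippocampus from the single control RNA, a point per oil diet, with both oils shown for the 7 genes measured on chip B. Ifitm10 lies below the control with fungal and fish oil, and the far H2-M2 point with fish oil comes from an intensity below the floor.

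The median over the 21 member genes kept in hippocampus was -0.18 with fungal oil and -0.10 with fish oil, against -0.02 and 0.00 over all genes, and -0.05 over 7 genes with both oils, against -0.03. Fungal oil put 15 of 21 below the control, and fish oil 12, against 53.35% and 49.32% of all genes. Choroid plexus and meninges markers on chip A summed to 1426, 4673 and 2534 in the control, fungal and fish oil RNAs. In that order Ptgds read 624, 3118 and 1843, Igf2 353, 805 and 415, Ttr 304, 490 and 157, and Kl 145, 221 and 119. Folr1 was above the floor only with fungal oil. With fish oil, Ptgds and Igf2 thus lay above the control, and Ttr and Kl below it. The part of such tissue in the member values was not tested. Whether the oil effect differed between tissues was tested with limma over all arrays: 0 of 32 members were called, against 0.0459% of all probe sets, and 3 members (9.38%) had an unadjusted p under 0.05, against 6.52% of all.

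Other genes of the pathway were read from a list of 46, of which 30 were on the chips and 15 passed the filter for the tissue comparison. Over all 6535 probe sets tested between tissues, limma called 18.7% higher in liver and 30.7% higher in hippocampus. Of the list, it called 4 of 15 higher in liver and 5 higher in hippocampus, and 0 for any diet. Those higher in liver were Tapbp, which tethers class I to the transporter (1.28), Fcgrt, the receptor that recycles antibodies with B2m (2.28), Cd1d1, which presents lipids with B2m (at least 29-fold, with all 3 hippocampus RNAs below the floor), and the lysosomal protease Ctsl (2.89). Those higher in hippocampus were the RNA editor Adar (-1.31), the proteases Ctss (-1.70) and Lgmn (-1.12) that process class II antigens, the kinase Jak1 (-1.26) and Oas1g, of a family of sensors of viral RNA (at least 7.93-fold, with 3 of 5 livers below the floor). In the livers, Ctsl read 4353 and 4269 in the controls and 3449, 3193 and 3229 with fungal, fish and both oils. Ctss, expressed by macrophages, read 146 and 131 against 89, 85 and 119, and Ly6e, an interferon-induced surface protein, 2837 and 2859 against 2304, 2016 and 2233. All 3 were below both controls with every oil, which 11.9% of all probe sets were. Cd1d1, at 418 and 361 against 444, 539 and 429, and Pdia3, at 1268 and 1417 against 1474, 1423 and 1525, were above both with every oil, which 12.5% of all were. Limma called none of these 5. The chaperones Canx, Calr and Pdia3 differed by under 2-fold between the tissues.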

How the data were processed

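Whole-number intensity values, negatives included, were deposited by the authors for each array of Affymetrix Mu11K sub A (chip A) and sub B (chip B) type; no source used here gives the software or scaling. Trimmed means near 150 were read from the values, so the deposited scaling was kept. Each chip's 55 control probe sets entered no test. Gene names came from the platform annotation. Intensities were set to at least 15 and logged (log2). Probe sets at or above their chip's median mean level were fitted with limma 3.58.1 in R 4.3.3 (lmFit, eBayes with intensity trend), per chip, with Benjamini-Hochberg adjustment over both chips, and called at adjusted p under 0.05, and 2-fold for tissue. The liver diet fits leave 1 residual degree of freedom and the any oil fit 3. Gene-level values use a gene's brightest probe set. The script was tested on simulated data. Genes were named by role if called, at least 1.5-fold from each liver control, 2-fold from the hippocampus control and bright, or among the 3 brightest of a tissue; others were named after their values were seen. The members and lists were chosen with earlier results of these data known. Alternatives were another scaling, floors, filters, no trend, additive oils, and leaving out controls or diets. Arrays carry no counts, and their number limits the precision.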

Additional observations from a re-analysis of the deposited data

How the results depend on the processing

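Of the alternative counts of members called and hippocampus medians, 69 stayed near the reported value and 5 did not. The tissue count of 17 became 9, of 14 member probe sets tested, with the filter at the 75th percentile, and was 17 without either liver control. Without a filter on dim probe sets, limma called 2 members for fish oil against control and the same 2, Ifitm10 and Gbp3, for fungal against fish oil, of 74, where it called 3.02% and 4.66% of all 13069 probe sets. It called 2, Gbp2b and Ifit2, for the difference between tissues in the oil effect, against 1.3% of all; the hippocampus median with fungal oil was then 0.00. In the control livers Ifitm10 read -258 and -21 and Gbp3 read 0 and -29, all set to the floor of 15. Gbp2b and Ifit2 lay below the floor in every liver. The part of the floor in these calls and in that median was not tested. Of the liver medians, 28 alternatives stayed within the limit (the spread over leaving out each control, or 0.1 for fungal against fish oil) and 12 did not; with the filter at the 75th percentile the medians for fungal oil and both oils were 0.00 and 0.04. Without a liver control the 4 diet groups leave no residual degrees of freedom, so no test was run there. No paired analysis was possible because no groups compared share 2 replicate numbers; the tissue fit holds diet as a term, and without that term it also called 17 members. Signals near the floor of 15 limit Tap1, Tap2, most nonclassical class I genes and the hippocampus values of the GTPases.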
